A study of Caenorhabditis elegans with 2 samples.

Results

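The mitochondrial genome of Caenorhabditis elegans was examined as a source of small RNAs. Its members were chosen by position and name: clusters of overlapping reads on the mitochondrial chromosome, with annotation naming genes that begin with MTCE. This gave 99 of the 51569 clusters of the deposited list, with 1417 of 1417144 reads. Small RNA was taken from whole worms of the fem-1 strain, and both groups of the study share that strain and tissue. The gene fem-1 is needed for male development and for sperm formation in hermaphrodites; the allele is not stated in the labels. The monophosphate group (1 library) was prepared by the standard small RNA protocol, which takes up RNAs with a 5′ monophosphate. The polyphosphatase group (1 library) was treated so that RNAs with a 5′ triphosphate were caught as well, and was not analysed here. The labels state no age, growth temperature or number of worms. With 1 library there was no replicate, no test and no p-value; intervals are exact 95% intervals for counting error only, and the reads are not independent molecules. The list's name states reads of 18 to 26 nt, so its 1412353 reads on chromosomes are the depth of the selected reads.

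Mitochondria keep a small circular genome whose products serve the respiratory chain and the ribosome that translates its messages. In the WBcel235 gene table of RefSeq it holds 36 genes: 12 for proteins of complexes I, III, IV and V, 2 for the rRNAs of the small and large mitochondrial ribosomal subunit, and 22 for tRNAs. In worms these genes lie on a single strand. In mammals such genes are transcribed as long precursors, from which tRNAs are cut out to free the messages between them. In worm siRNA pathways, RNA-dependent RNA polymerases copy messages of nuclear genes into short RNAs that are antisense to the message.

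Small RNAs from the mitochondrial genome were mainly pieces of its rRNAs, followed by pieces of 1 message, ND5. Clusters that name an rRNA gene held 827 of 1417 reads, or 58.4% (55.7 to 60.9). Clusters of protein genes held 446 reads (31.5%, 29.1 to 34.0), and clusters of tRNA genes alone held 76 reads (5.36%, 4.25 to 6.67). Antisense clusters held 3 reads. A cluster outside any gene held 41 reads, and 3 clusters shared by genes of different kinds held the 14 rRNA and tRNA reads counted above and 24 protein and tRNA reads. Together the genome took 0.100% of reads on chromosomes (0.0952 to 0.106). Per length it was densely covered, with 106 reads per kb (101 to 112) over the 13324 nt between the outermost clusters, against 14.1 per kb for the nuclear chromosomes. Without clusters naming rRNA it had 44.3 per kb (40.8 to 48.0), and the nuclear chromosomes without rRNA and miRNA clusters had 1.49. These densities do not account for how much of each genome lies in genes or for its copies per cell. Clusters on the plus strand covered 26.8% of the span, and the 10 clusters with the most reads held 72.5% of the reads (70.1 to 74.8).

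Of the 36 genes, 27 were overlapped by a cluster. Both rRNA genes, 10 of 12 protein genes and 15 of 22 tRNA genes were among them. ND3 and ND4L, small subunits of complex I, were overlapped by no cluster. MTCE.4 and MTCE.34 appear in the list only as neighbours of clusters, and by elimination they are these 2 protein genes. A count of 0 allows up to 3 reads for each (one-sided limit). The longest stretch without sense reads was 730 nt at 11356 to 12085. It lay between the clusters of an rRNA gene (MTCE.33) and those of ND5. The next, 632 nt at 163 to 794, ran from the ND6 cluster to a tRNA cluster. A stretch of 625 nt at 3677 to 4301 ran from the last ND2 cluster to a tRNA cluster, and 506 nt lay within ND4. The stretches are bounded by clusters, so they can include parts of the genes named.

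The rRNA genes are MTCE.7 (KEF34_r02 in RefSeq) and MTCE.33 (KEF34_r01), which give the RNA frame of the mitochondrial ribosome. MTCE.7 held 475 reads (433 to 520) in 6 clusters of its own between 922 and 1515. A further 14 reads lay in a cluster at 1521 to 1596 that also touches the tRNA gene MTCE.8. MTCE.33 held 338 reads (303 to 376) in 10 clusters between 10475 and 11355. Per kb of the stretch between its outermost clusters, MTCE.7 had 800 reads (729 to 875) and MTCE.33 had 384 (344 to 427). The stretch stands in for gene length. The intervals treat reads as independent, although most lie in a few clusters per gene, so they understate the spread. Without the leading cluster of each gene these densities were 493 (438 to 553) and 226 (196 to 260).

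Most reads of both rRNAs lay in 3 clusters per gene and were made of many sequences. All clusters of the gene together covered 87.4% of the span in MTCE.7 and 71.5% in MTCE.33. In MTCE.7 the clusters at 963 to 1065, 1205 to 1358 and 1091 to 1203 held 182 reads (157 to 210), 179 (154 to 207) and 67 (51.9 to 85.1). They held 90.1% of that gene's reads (87.1 to 92.6). The other 3 clusters had 2 to 41 reads, the highest at 1381 to 1488. In MTCE.33 the clusters at 10747 to 10879, 11033 to 11252 and 10982 to 11023 held 139 reads (117 to 164), 91 (73.3 to 112) and 60 (45.8 to 77.2). These were 85.8% of its reads (81.6 to 89.3), and its other 7 clusters had 1 to 32. At 5 of these 6 sites the cluster was 103 to 220 nt wide, and the 813 reads of clusters naming an rRNA gene alone comprised 551 distinct sequences, 1.48 reads per sequence.

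**Figure D1:**
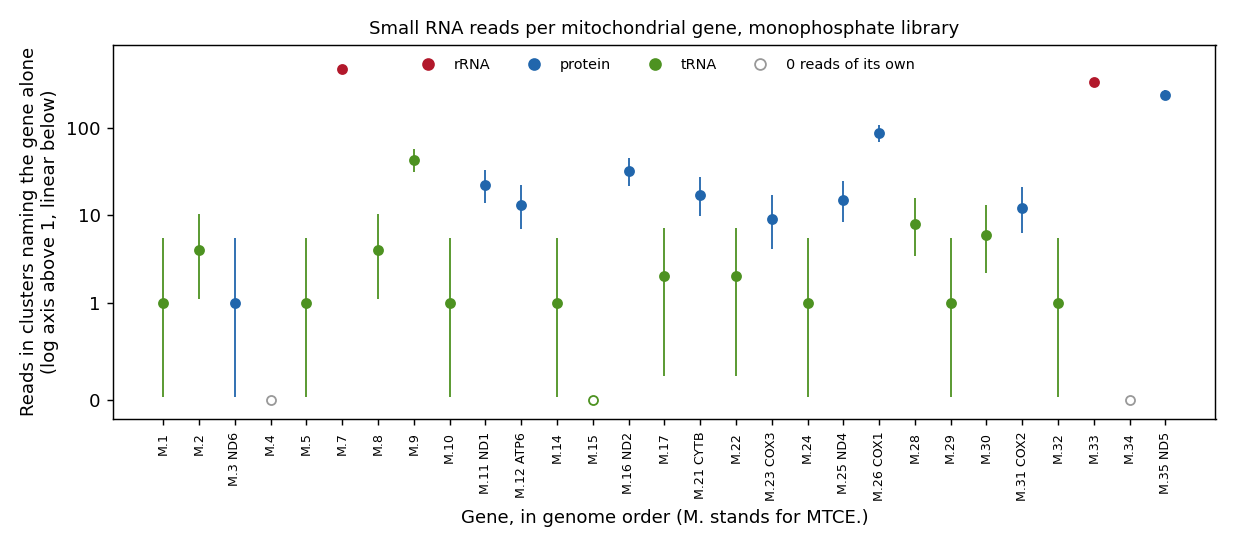
Reads per mitochondrial gene in clusters that name it alone, for the 29 MTCE genes named in the list, in genome order; bars are exact 95% Poisson intervals, the axis is logarithmic above 1, and open symbols mark genes with 0 reads of their own. MTCE.7 (475), MTCE.33 (338) and ND5 (237) stand highest, and most tRNA genes lie at 1 to 8.

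Among protein genes, those of complex I, the NADH dehydrogenase, held 307 reads in 5 of 7 genes, and those of complex IV, the cytochrome c oxidase, 108 reads in 3 of 3. CYTB, the single mitochondrial gene of complex III, held 17 reads (9.90 to 27.2) in 8 clusters, and ATP6, a subunit of the ATP synthase (complex V), 13 reads (6.92 to 22.2) in 5 clusters. A read at 2634 to 2657 lay over both ND1 and ATP6 and is counted for neither. Complex I stood first through ND5, without which it held 70 reads.

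ND5 (MTCE.35) encodes a large membrane subunit of complex I. Its 237 reads (208 to 269) came almost entirely from a pair of narrow sites. The cluster at 12483 to 12514, 32 nt wide, held 157 reads (133 to 184) of 27 distinct sequences, and the cluster at 12582 to 12620, 39 nt wide, held 68 reads (52.8 to 86.2) of 16. The sites lie 67 nt apart and held 94.9% of ND5 reads (91.3 to 97.4) and 50.4% of all protein gene reads (45.7 to 55.2). The other 5 clusters of ND5 had 12 reads in all. Each sequence at these 2 sites was read 5.23 times on average, against 1.24 times in the other 60 protein clusters. The sites were picked by their reads, and 29 of the 62 protein clusters held 1 read, which fixes their value at 1. Part of this gap thus follows from the choice. The rRNA clusters of 182, 179 and 139 reads had 1.78, 1.57 and 1.49 reads per sequence, over wider stretches. At the 2 ND5 sites the uniqueness values were 44 and 37, close to the median of 41 over mitochondrial clusters. Uniqueness measures how well the placement is set apart from other positions.

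Sites of this depth and width were rare in nuclear messages. Of 34574 nuclear clusters in sense to coding exons, 57 (0.165%) had at least 68 reads. Their median width was 178 nt, and 2 of the 57 were at most 39 nt wide. Of the 22 nuclear clusters with at least 157 reads, 0 were as narrow as the leading ND5 site. As a count, not per length, ND5 was exceeded by 16 of 7212 nuclear genes with sense exon reads, and COX1 by 61. Without its 2 leading sites ND5 had 13.5 reads per kb of its span (6.98 to 23.6), in the range of the other messages.

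COX1 (MTCE.26), the catalytic subunit of cytochrome c oxidase, had 87 reads (69.7 to 107) in 18 clusters spread from 7871 to 9404. Its leading cluster, at 9137 to 9177, held 27 of them in 14 sequences, and the COX1 clusters covered 43.0% of the span. COX2 had 12 reads (6.20 to 20.96) in 7 clusters, led by 5 at 10242 to 10268, and COX3 had 9 (4.12 to 17.1) in 5, led by 4 at 5738 to 5765. A cluster of 5 reads at 10316 to 10348 joins the end of COX2 to the tRNA gene MTCE.32.

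The remaining complex I genes were low. ND2 had 32 reads (21.9 to 45.2), 28 of them in a 32 nt cluster at 3645 to 3676 with 10 sequences. ND1 had 22 reads (13.8 to 33.3) in 3 clusters of 8, 7 and 7 reads, each read of a different sequence. ND4 had 15 (8.40 to 24.7), of which 11 came from a 32 nt cluster at 7047 to 7078 with 5 sequences. ND6 had 1 read, at 144 to 162. In ND2 and ND4 a single narrow site held 87.5% and 73.3% of the reads in their own clusters. This resembled the pair of sites in ND5, though on far fewer reads. For ND2 the share leaves out 19 reads of a cluster shared with tRNA genes.

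Per kb between its outermost clusters, ND5 had 267 reads (234 to 303), below MTCE.33. COX1 followed with 56.7 (45.4 to 70.0), ND1 with 44.3 (27.7 to 67.0), ATP6 with 35.5 (18.9 to 60.7), COX2 with 21.9 (11.3 to 38.3), CYTB with 17.1 (9.94 to 27.3), COX3 with 17.0 (7.78 to 32.3) and ND4 with 12.9 (7.19 to 21.2). Neighbours in this order from COX1 down have overlapping intervals. The span stands in for gene length and shared reads are left out, so these densities are approximate, and ND2, with 2 clusters inside 80 nt, and ND6 are left out of the order.

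**Figure D2:**
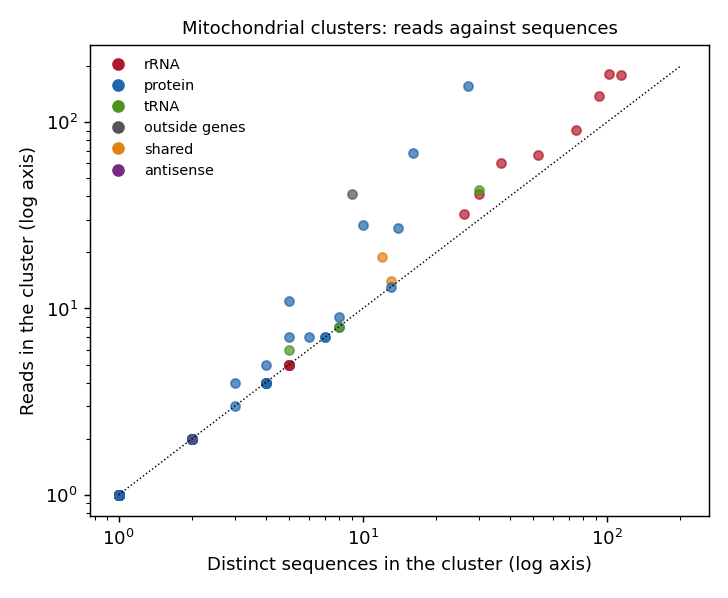
Reads against distinct sequences for each of the 99 mitochondrial clusters, both on log axes, coloured by gene class; on the dotted line each sequence was read once, and many points coincide at 1 read. The rRNA clusters lie on or just above the line. The ND5 sites (157 and 68 reads) and the cluster outside genes (41 reads of 9 sequences) stand furthest off it. They are followed by a cluster of ND2 (28 reads of 10) and 1 of ND4 (11 of 5).

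The tRNAs, adaptors of mitochondrial translation, gave few reads. Of 14 tRNA genes with a cluster of their own, 1 exceeded 8 reads. MTCE.9 had 43 reads (31.1 to 57.9) of 30 sequences in a 43 nt cluster at 1661 to 1703. It was followed by MTCE.28 with 8 (3.45 to 15.8; 9491 to 9518), MTCE.30 with 6 (2.202 to 13.1; 9602 to 9648), and MTCE.2 (73 to 112) and MTCE.8 (1620 to 1647) with 4 each (1.09 to 10.2). The other 9 had 1 or 2 reads. A cluster of 19 reads at 3339 to 3417 spans the tRNA genes MTCE.14 and MTCE.15 and, in the list's annotation, the first bases of ND2, and MTCE.15 had no cluster of its own. The gene table gives no amino acid for these genes, so none is named. Nuclear tRNAs held 561 reads.

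The cluster outside genes lay at 13329 to 13356 and is the last one of the genome. It was 28 nt wide and held 41 reads (29.4 to 55.6) of 9 sequences, 4.56 reads per sequence, with a uniqueness value of 50, shared by 3 other mitochondrial clusters. The list names ND5 as the gene upstream of it. In the RefSeq table a tRNA gene that no cluster overlaps, KEF34_t22, follows ND5 and is the last gene. The cluster overlaps no gene in the list's annotation or, by position, in the RefSeq table. How far it lies from the end of that tRNA gene was not tested, and the list's build is not stated. Like the ND5 sites it combined a narrow width with repeated reads of few sequences.

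Nearly all mitochondrial reads came from the coding strand. Of the reads over genes, 1373 were in sense and 3 in antisense, or 0.218% antisense (0.0450 to 0.636). The antisense reads were single, at 2589 to 2612 opposite ND1 (24 nt), 4617 to 4639 opposite CYTB (23 nt) and 8802 to 8823 opposite COX1 (22 nt). In nuclear coding exons 14.1% of reads were antisense (13.9 to 14.3), and for mitochondrial protein genes taken alone the share was 0.668% (0.138 to 1.94). At 22 nt, the length of secondary siRNAs, nuclear exons had 2057 antisense reads and 3820 sense reads, against 1 and 1 in mitochondrial protein genes. With a single library these shares have no replicate check. The library takes up RNAs with a 5′ monophosphate, and antisense RNAs with a 5′ triphosphate were not assessed. The minus strand carried 0.225 reads per kb (0.0464 to 0.658), and the minus strand of the sequence named markov, which the labels do not describe, carried 0.0296.

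Mitochondrial clusters, nearly all of them in sense, had no peak of width at 22 nt in this monophosphate library. Only 3 were antisense, and nuclear sense clusters had no such peak either. The profile therefore cannot show whether antisense siRNAs were made, and RNAs with a 5′ triphosphate were not assessed. Cluster width equals the length of a read on the genome where a cluster holds 1 sequence. Of the 41 such mitochondrial clusters of 18 to 26 nt, 8 each were 18, 19 and 23 nt wide, 6 were 24, 5 were 20, 2 each were 21, 22 and 25, and 0 were 26 nt. At 22 nt this was 4.88% (0.596 to 16.5), against 31.5% of nuclear antisense clusters (30.3 to 32.8) and 11.2% of nuclear sense clusters (10.8 to 11.5). The mitochondrial interval includes the nuclear sense share at each of the widths, at 26 nt by a narrow margin (0% to 8.60%, against 8.17%). Clusters of 18 to 26 nt held 4.80% of mitochondrial reads (3.75 to 6.04) and 50.6% of nuclear sense exon reads. The bulk of mitochondrial reads thus lay in wider clusters, in which the length of each read is not listed.

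**Figure D3:**
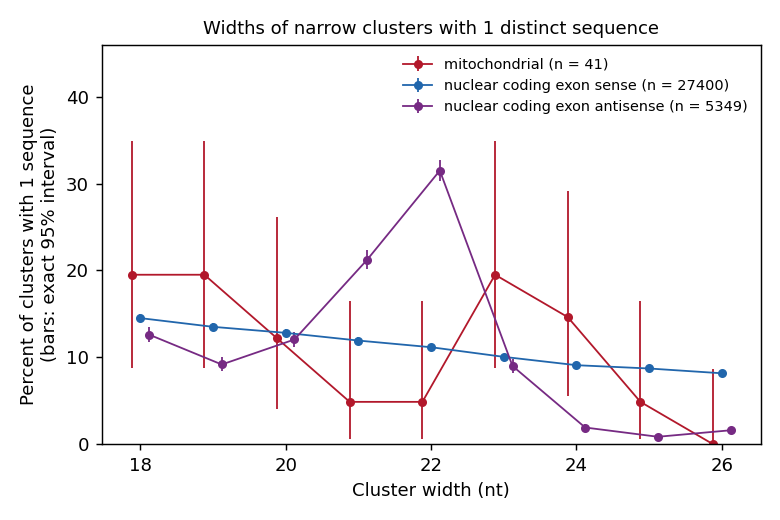
Widths of clusters with 1 distinct sequence, as percent of such clusters from 18 to 26 nt, for mitochondrial clusters (n = 41) and nuclear clusters in sense (n = 27400) and antisense (n = 5349) to coding exons; bars are exact 95% intervals. Nuclear antisense clusters peak at 22 nt (31.5%), while mitochondrial clusters (4.88%) and nuclear sense clusters (11.2%) do not. Only 3 of the mitochondrial clusters are antisense.

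Most subunits of the respiratory chain are encoded in the nucleus, and their genes were read for comparison. Of 52 listed nuclear genes for respiratory complexes, cytochrome c, mitochondrial DNA upkeep and mitochondrial translation, 48 had sense exon reads, 553 in total, with a median of 4 and a highest value of 113. Over all 19971 nuclear protein-coding genes matched, 35.2% had sense reads and the median was 0. The list held 27 antisense reads, 4.66% of its reads (3.09 to 6.70), against 12.7% over all nuclear genes (12.4 to 12.9). By genes the order was the opposite, with antisense reads in 17 of the 52 (32.7%) and in 3212 of 19971 (16.1%). No antisense read of the list lay in a 26 nt cluster, a count of 0 that allows up to 3 reads (one-sided limit).

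The ATP synthase subunits led the nuclear list. atp-2, the catalytic beta subunit, had 113 sense reads (93.1 to 136; leading cluster III 5229015 to 5229093, 25 reads), and atp-1, the alpha subunit, had 100 (81.4 to 122; I 12652936 to 12653036, 22 reads). They were followed by nuo-5 of complex I with 26 (17.0 to 38.1; V 2703053 to 2703117), cox-4 of complex IV with 22 (13.8 to 33.3; I 13658576 to 13658655) and ucr-1 of complex III with 20 (12.2 to 30.9; III 5593578 to 5593602). These reads were spread: the 113 of atp-2 lay in 19 clusters of 104 distinct sequences, and the 100 of atp-1 in 29 clusters of 91. Antisense reads were most frequent for atp-1 and tufm-1, a mitochondrial elongation factor, with 4 each, followed by nuo-5, isp-1, atp-2 and gfm-1 with 2 each.

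By complex, the nuclear genes of complex I held 58 reads in 8 of 8 genes, those of complex II 26 in 5 of 5, of complex III 45 in 6 of 6, of complex IV 72 in 7 of 7 and of complex V 283 in 9 of 9. Mitochondrial DNA maintenance and transcription genes held 13 reads in 4 of 5, translation genes 43 in 8 of 10 and cytochrome c genes 13 in 1 of 2. The genes without sense reads were cyc-2.2, twnk-1, tsfm-1 and mrpl-2. As counts, not per length, the mitochondrial genes exceeded the listed nuclear ones in complex I (307 against 58) and complex IV (108 against 72), and the nuclear ones stood higher in complexes III (45 against 17) and V (283 against 13). Without the 2 ND5 sites, which held 225 reads, the mitochondrial complex I genes held 82 reads. The list was not checked to hold every nuclear subunit, so which genome stands higher depends on how many genes are listed.

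**Figure D4:**
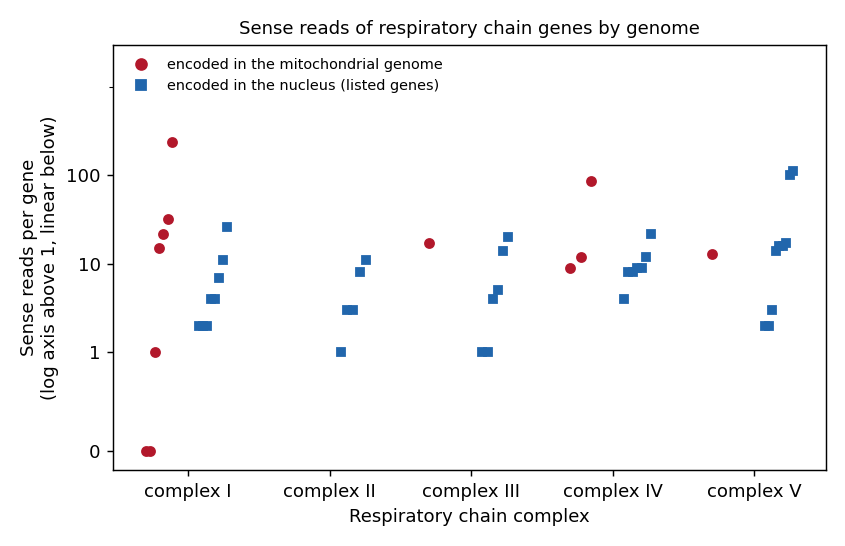
Sense reads per gene for respiratory chain complexes I to V, for mitochondrial genes (circles) and listed nuclear genes (squares), on an axis that is logarithmic above 1; each point is a gene and gene length is not accounted for. ND5 (237) and COX1 (87) lead the mitochondrial genes, and atp-2 (113) and atp-1 (100) the nuclear ones.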

How the data were processed

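The authors deposited 1 list of read clusters. Its name holds a short form of the title of the monophosphate library and of no other, so it was taken as that library's; each of its 51569 lines reports support from 1 library. Reads were mapped with Bowtie2 2.1.0, per the submitters' processing notes; the sources used here do not give the build, the annotation release or the filters. The deposited attributes hold raw read counts, distinct sequences, edits, width and a uniqueness value; the deposited column of counts of conversion events is 0 in every mitochondrial cluster, and the deposited score (entropy) was not used.

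A cluster was taken to overlap a protein gene where the list tags it as lying in that gene, and a non-coding gene where it names it; a bare protein gene name without that tag marks a gene upstream of the cluster. Tokens were read by this rule after a run on simulated data. Those data were built by the same rule, so the run cannot show that the list's tags follow it. Names and classes came from WBcel235 (RefSeq), by overlap of positions. Coding status agreed for 27 of 27 genes. Overlaps agreed for 98 of 99 clusters, a count partly fixed in advance because the same clusters set the names. The exception is the cluster at 3339 to 3417. Nuclear classes were read from the list's annotation, non-coding RNA ahead of coding exons. For the nuclear list, a cluster naming exons of several genes counts for each.

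Intervals are exact at the 95% level, Clopper-Pearson for shares and Poisson for counts (scipy 1.17.1). All members are accounted for. Values in full are given for rRNA genes, protein genes, the 5 tRNA genes with the most reads, the 10 leading clusters, and the 5 leading nuclear genes in each direction, with ties. The members and lists were chosen with earlier results of these data known. Alternatives were distinct sequences in place of reads, clusters of 18 to 26 nt, leaving out the leading cluster, a uniqueness value of at least 10, clusters naming rRNA alone, and a total without nuclear rRNA and miRNA. Sequences are not shown.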

Additional observations from a re-analysis of the deposited data

How the results depend on the processing

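With 1 library, changes are read against counting intervals. The mitochondrial share of reads on chromosomes (0.100%) was 0.719% by distinct sequences, 0.0109% in clusters of 18 to 26 nt, 0.0875% without the leading cluster and 0.943% without nuclear rRNA and miRNA in the total. The rRNA share of mitochondrial reads (58.4%) was 64.4%, 17.6% and 52.2% under the first 3 of these, and 57.4%, within its interval, for clusters naming rRNA alone. Thus rRNA led by reads and by sequences but not among narrow clusters. These held 12 of the 813 reads of clusters naming rRNA alone. Wide clusters are built of overlapping reads that the list's name puts at 18 to 26 nt, so cluster width does not give RNA length. The antisense share (0.212% of all mitochondrial reads) was 4.41% in clusters of 18 to 26 nt, since its 3 reads stay while 68 reads remain; it stayed within its interval by distinct sequences (0.342%), without the leading cluster (0.243%) and at a uniqueness of at least 10 (0.213%). The density of 106 reads per kb was 65.7 by distinct sequences, 5.10 in narrow clusters, 92.7 without the leading cluster and 44.3 without clusters naming rRNA, the last chosen after seeing the data. The causes of the other changes were not tested. No paired analysis was possible because each group has 1 library and no test was made. Depth limits the genes with 1 to 8 reads, whose order cannot be read, and the 3 antisense reads.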

Other observations

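Edits to the genome sequence were unevenly spread over RNA classes. Nuclear tRNA clusters held 22.99 edits per 100 reads (19.2 to 27.3; 129 edits in 561 reads), whereas mitochondrial tRNA clusters held 0 edits in 76 reads (0 to 4.85 per 100). Mitochondrial rRNA clusters had 1.72 per 100 (0.941 to 2.89) and nuclear rRNA clusters 2.41 (2.37 to 2.45), so that these intervals overlap. Mitochondrial protein clusters had 0.673 (0.139 to 1.97) and nuclear sense exon clusters 3.13 (3.002 to 3.27). The list gives no position for an edit.

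Simple or low-complexity repeats were annotated in 8 mitochondrial clusters with 455 reads, 32.1% of mitochondrial reads. The share over nuclear clusters was not taken, so whether this is unusual cannot be told. Uniqueness values were below 10 in 7 of 99 mitochondrial clusters, with 9 of 1417 reads, all of 18 to 23 nt. In the nucleus they were below 10 in 2789 of 49562 clusters, with 59569 of 1410936 reads.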
